A study of Mus musculus with 34 samples.

Results

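A library of mouse extraembryonic endoderm cells, named eXEN, was compared with 13 libraries of XEN-like cells that had been made from fibroblasts with chemicals. The comparison asks how far the chemically induced state departs from the embryonic cell type it is named after. These 14 libraries were taken from the 34 of the series and from the table on the XEN-like state, which holds 16 libraries in all, the others being 2 of embryonic fibroblasts. The eXEN library was labelled P8, read here as passage 8. Its source label names embryonic XEN cells and its description says chemically derived, so how the line arose is not settled by the labels. The XEN-like libraries were 8 colonies, the line F25 at passages 5, 8 and 13 and the line s39 at passages 3 and 17. All 14 carried the same strain label, Mapttm2(EGFP)Klt/J, an allele that places the EGFP reporter in the tau gene. The eXEN library stands for 1 line without a replicate, the F25 and s39 libraries are repeated samplings of their line, and the labels do not say whether colonies share an animal, so p-values measure the spread between these libraries, which may be technical. Flow cells with HVN codes carried eXEN, both lines and colonies 1 to 3, and the flow cell HJMKLALXX carried colonies 4 to 8.

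XEN cells are stem cell lines of the primitive endoderm, the layer of the early embryo that forms the visceral and parietal endoderm of the yolk sac. The transcription factors Gata6, Gata4, Sox17 and Sox7 set up and maintain this lineage, and XEN cells deposit basement membrane and secrete proteins as yolk sac endoderm does. Parietal endoderm is the motile, less epithelial of its derivatives, and visceral endoderm the more epithelial.

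Values were FPKM, fragments scaled to gene length and library size, so total counts are not known. The depth implied by the lowest values of single-exon genes lay between 6600000 and 10000000 fragments over the 14 libraries, with 9100000 in eXEN, estimates that may err by a factor of 2. Between 11029 and 11810 autosomal genes per library reached 1 FPKM. A total of 13639 autosomal genes with at least 1 FPKM in at least 1 of the 14 libraries were compared on the log2(FPKM + 1) scale. A gene was called outside the range when eXEN lay above the highest or below the lowest XEN-like library by at least 1 on this scale, which is a description without a test. limma was fitted with flow cell as a covariate with 2 levels, HJMKLALXX and the HVN codes. The HVN level joins HVNJMCCXX with HVNNLCCXX, which carried F25 at passage 8 alone, so that a difference between those flow cells was not modelled. Two-sided limma calls needed a difference of 1 or more in size and p under 0.05 after Benjamini-Hochberg adjustment. That model assumes that the lone eXEN library varies like the 13 others. Fewer cells of a type and less RNA per cell cannot be told apart in such bulk libraries.

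The eXEN library had the marker levels of the XEN-like libraries. Sox17, a transcription factor of endoderm, was at 481 FPKM in eXEN, at 266 to 1309 with a median of 404 in the 8 colonies, at 706, 675 and 760 in F25, at 494 and 553 in s39, and at 0.183 and 0.101 in the fibroblasts. Gata4, a zinc finger factor of the same lineage, was at 379 in eXEN, at 188 to 464 with a median of 311 in the colonies, at 244, 224 and 242 in F25, at 326 and 340 in s39, and at 1.00 and 0.206 in the fibroblasts. For both genes eXEN fell inside the XEN-like range and far from the fibroblasts. The mean of the 13 XEN-like libraries was 583 ± 275 FPKM (SD, n = 13) for Sox17 and 300 ± 80.1 for Gata4. The same held for Gata6 at 45.9 against 12.6 to 87.4, Sox7 at 100 against 21.2 to 109.6, and Foxa2, a forkhead factor of endoderm, at 57.2 against 31.1 to 125. Of 15 tested endoderm regulators, 0 lay outside the range by the gap and 0 were called by limma, while 1 (6.67%) lay just above the range. Over all genes the gap marked 0.579% above and 0.257% below and any gap marked 4.91% above, so 0 of 15 is near the background. Over all genes, Spearman's correlation of eXEN with the XEN-like libraries ran from 0.878 to 0.948 with a median of 0.905 over 13 pairs, against 0.846 to 0.980 with a median of 0.908 over the 78 pairs among XEN-like libraries. With the fibroblasts it was 0.723 and 0.665. These correlations are across 13639 genes, which are not independent, and are given as a description.

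The library most like eXEN was colony 1, with a correlation of 0.948 and a median absolute log2 difference of 0.330, followed by s39 at passage 17 with 0.941 and 0.378. Least like eXEN were colony 8 with 0.878 and 0.559, colony 6 with 0.879 and 0.539 and F25 at passage 8 with 0.879 and 0.536. Colony 4 had the same correlation of 0.879, with a difference of 0.489. The flow cell moved with likeness. The 8 XEN-like libraries on HVN flow cells had a median correlation of 0.929 with eXEN and the 5 on HJMKLALXX one of 0.879, and among XEN-like pairs the medians were 0.940 within HVN, 0.918 within HJMKLALXX and 0.893 across them. Since all lines were on HVN flow cells, flow cell and kind of sample cannot be told apart for them. Most colonies on HJMKLALXX are set apart from eXEN along the second component in the map of principal components.

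**Figure D1:**
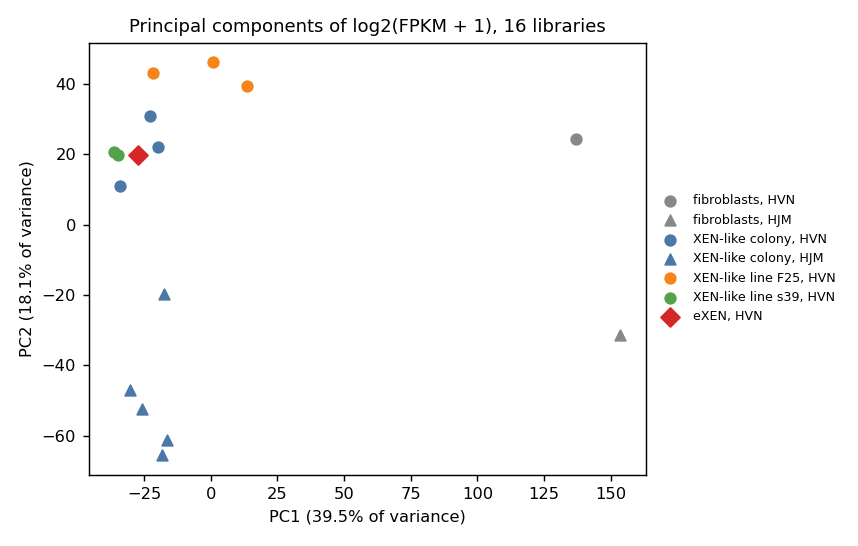
First and second principal components of log2(FPKM + 1) over 13639 genes, in arbitrary units, for 16 libraries, with colour for the group and triangles for flow cell HJMKLALXX. eXEN (red diamond, -27.3 and 19.8) lies among the HVN colonies and line s39, and the fibroblasts lie at 137 and 154 on the first component.

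Few genes set eXEN apart from every XEN-like library. Of 13639 genes, 79 (0.579%) lay above the range and 35 (0.257%) below it by the gap. limma called 61 genes (0.447%) higher and 10 (0.0733%) lower in eXEN, while 1187 genes had an unadjusted p under 0.05. Both rules chose 51 genes above and 8 below. Of the 61 called higher, 33 were under 1 FPKM in all 13 XEN-like libraries. They passed the filter on low values only through the eXEN value and had to differ, so for those named below values and no p are given. Within the HVN flow cells, against 8 XEN-like libraries, limma called 49 genes higher and 8 lower, and 123 lay above and 78 below the then narrower range. No eXEN library was on HJMKLALXX. With any gap at all, 670 genes (4.91%) lay above and 1873 (13.7%) below. As deposited, the median gene was 0.155 lower in eXEN on the log2 scale. After scaling by the median ratio of genes the median was -0.00041, and 112 genes lay above and 25 below by the gap. The share of genes outside the range that lay above it thus went from 69.3% to 81.8%, and with a pseudocount of 0.1 it was 42.3%. Just outside the threshold lay Nupr1, a stress-induced nuclear protein, at a gap of 1.00, and Epcam at -1.01, and just inside lay the gap junction gene Gjb5 at 0.993 and Id1, an inhibitor of helix-loop-helix factors, at -0.989. Of the 79 genes above, 62 were protein-coding and 12 were pseudogenes, and 25 were under 1 FPKM in all 13 XEN-like libraries. Of the 35 genes below, 33 were protein-coding.

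The naming rule took 15 genes above and 6 below the range, shown in the plot of named genes, all also called by limma and at 10 FPKM or more on the higher side. Of the 15 above, 6 passed the filter only through eXEN. The genes are ordered here by their known roles, an order chosen after the values were seen and not tested as a theme.

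**Figure D2:**
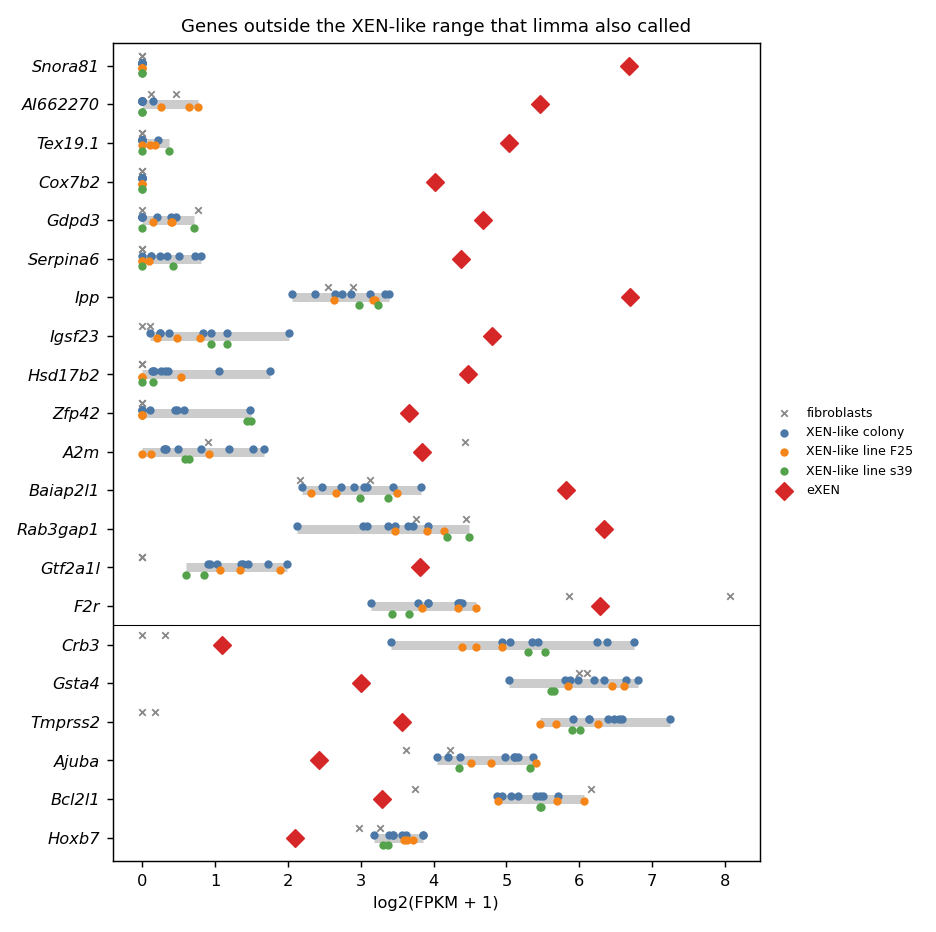
log2(FPKM + 1) of the 21 genes named by rule, 15 above and 6 below the line, in eXEN (red diamond), 8 colonies (blue), line F25 (orange), line s39 (green) and 2 fibroblast libraries (grey crosses). The grey bar is the range of the 13 XEN-like libraries, which the diamond never enters, with Tex19.1 at 31.9 FPKM against at most 0.291.

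Above the range, Tex19.1, a mammalian gene active in germ cells, placenta and pluripotent cells that acts in the control of retrotransposons, was at 31.9 FPKM in eXEN. It was at 0 to 0.163 with a median of 0 in the colonies, at 0, 0.0797 and 0.126 in F25, at 0.291 and 0 in s39, and listed at 0 in both fibroblast libraries. Thus eXEN alone held the gene at more than 1 FPKM. It passed the filter only through eXEN. Tex19.1 (ENSMUSG00000039329) spans 121146143 to 121148319 of chromosome 11 in mm10.

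Zfp42, also called Rex1, a zinc finger gene used as a marker of pluripotent cells and also present in trophoblast and germ cells, was at 11.6 FPKM in eXEN. It was at 0 to 1.78 with a median of 0.226 in the colonies, listed at 0 in F25 and the fibroblasts, and at 1.82 and 1.70 in s39. Of the XEN-like libraries s39 and colony 7 were the highest. The log2 difference was 3.18 ± 0.62 (SE; limma adjusted p = 0.0323), and 7 of 13 fits that left out 1 XEN-like library kept the call, with adjusted p from 0.0178 to 0.0604. The core pluripotency genes Pou5f1, Nanog and Sox2 were low in eXEN. Pou5f1 was at 0.0910 FPKM and listed at 0 in the other 15 libraries, too low to be tested. Nanog was at 2.53 against 0.0540 to 2.16, above each XEN-like library by less than the gap (limma adjusted p = 0.46). Sox2 at 6.72 lay inside the XEN-like range of 5.01 to 21.1. Of 13 tested pluripotency genes, Zfp42 was the 1 that limma called and the 1 above the range by the gap, while 2 (15.4%) lay above and 2 below by any gap, beside 4.91% and 13.7% of all genes. Dppa5a, a marker of pluripotent cells, was at 6.29 in eXEN, at 37.1 in colony 4 and at 1.59 or less in the 12 others, so that without colony 4, on HVN flow cells or against lines only, 2 pluripotency genes lay above by the gap. The RNA-binding gene Lin28a was at 73.1 in eXEN against 55.2 to 160.

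The promoters of both genes are shown because both were above the range and because Tex19.1 is known in mouse cells as a gene silenced by DNA methylation, which was not measured here. The window holds 250 bases before and 50 after the first listed start, from RefSeq on GRCm38.p6, written 5′ to 3′ on the strand of the gene, with each CG dinucleotide in capitals. The window of Tex19.1 is chr11:121145893-121146192 on the plus strand and that of Zfp42 is chr8:43306960-43307259 on the minus strand.
Tex19.1: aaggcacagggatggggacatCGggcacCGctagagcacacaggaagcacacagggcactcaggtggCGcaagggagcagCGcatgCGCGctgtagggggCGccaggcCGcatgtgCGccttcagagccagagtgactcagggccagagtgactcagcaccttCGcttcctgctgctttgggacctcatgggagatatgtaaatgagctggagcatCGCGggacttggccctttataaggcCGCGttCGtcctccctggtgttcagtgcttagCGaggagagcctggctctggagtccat
Zfp42: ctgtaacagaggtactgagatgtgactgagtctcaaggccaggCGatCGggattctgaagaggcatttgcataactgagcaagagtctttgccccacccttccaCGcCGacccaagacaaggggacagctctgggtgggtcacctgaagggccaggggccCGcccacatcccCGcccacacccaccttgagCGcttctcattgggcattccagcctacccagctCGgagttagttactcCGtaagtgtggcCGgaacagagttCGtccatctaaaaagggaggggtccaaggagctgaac
There were 16 CG in the window of Tex19.1 and 11 in that of Zfp42, against a median of 21 over the 10055 tested genes with a promoter in the table. The 52 genes above the range that matched had a median of 11.5, and the 22 below that matched one of 16.5.

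Cox7b2, a testis form of a cytochrome c oxidase subunit (chromosome 5, 71442824 to 71548205), was at 15.2 FPKM in eXEN and listed at 0 in all 13 XEN-like libraries and both fibroblasts, and it passed the filter only through eXEN. Gtf2a1l, the germ cell form of a subunit of the transcription factor TFIIA, was at 13.1 against 0.879 to 2.96 in the colonies, 1.10, 1.53 and 2.71 in F25 and 0.798 and 0.514 in s39. Both fibroblast libraries were at 0. The log2 difference of eXEN from the XEN-like libraries was 2.74 ± 0.40 (limma adjusted p = 0.00291). Further genes known from germ cells were chosen after their values were seen. Padi6, Slc9b1, Tuba3a, Tex19.2, Pramef12 and Syce1 were under 1 FPKM in all 13 XEN-like libraries. They passed the filter only through eXEN and had to differ. Padi6, an oocyte enzyme of the peptidylarginine deiminase family, was at 4.22 in eXEN and listed at 0 in the 15 others. Slc9b1, a sodium/proton exchanger of sperm, was at 8.00 against at most 0.936. The remaining ones were near the lowest level tested: Tuba3a, a testis tubulin, at 2.09, Tex19.2, the paralog of Tex19.1, at 1.46, Pramef12, of a gene family expressed in germ cells, at 1.28, and Syce1, of the synaptonemal complex, at 1.09, each at 0.101 or less in the XEN-like libraries. Of the 13 genes of the germline list in the table, 4 were high enough to be tested. The others were under 1 FPKM in eXEN and in all 13 XEN-like libraries and were not compared. Tex19.1 was the 1 of these 4 above the range by the gap, beside 0.579% of all genes. It entered the 4 only through its eXEN value, so the count is no result about the list. Tex15, a gene of meiosis, at 2.04 lay inside 0.776 to 4.39.

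Other named genes above the range encode enzymes, secreted proteins and membrane proteins. Ipp, a kelch repeat gene named for a placental transcript that starts in an intracisternal A particle, which is a mouse retrotransposon, was at 103 FPKM in eXEN. It was at 3.15 to 9.49 with a median of 6.01 in the colonies, at 5.21, 7.98 and 8.17 in F25, at 6.88 and 8.42 in s39 and at 4.84 and 6.40 in the fibroblasts. eXEN was thus 14.9-fold above the median of 6.88 of a gene that was low and even elsewhere (log2 difference 3.80 ± 0.44, limma adjusted p = 0.000335). Serpina6, the corticosteroid-binding globulin of plasma, was at 19.7 against at most 0.748. Hsd17b2, a dehydrogenase that inactivates sex steroids, was at 21.2 against at most 2.38, and Gdpd3, a lysophospholipase, at 24.7 against at most 0.631. The protease inhibitor A2m was at 13.3 against at most 2.18 in XEN-like libraries, but the fibroblasts were at 20.6 and 0.872. The limma adjusted p was 0.000103 for Hsd17b2 and 0.0117 for A2m, while Serpina6 and Gdpd3 passed the filter only through eXEN. The thrombin receptor F2r was at 77.0 in eXEN, at 7.86 to 22.9 in XEN-like libraries and at 56.8 and 268 in fibroblasts (limma adjusted p = 0.0339). Baiap2l1, an adaptor between membrane and actin, was at 55.2 against 3.58 to 13.2, Igsf23, of the immunoglobulin superfamily, at 26.8 against 0.0746 to 3.05, and Rab3gap1, part of the GTPase-activating complex of RAB3, at 80.1 against 3.37 to 21.3. The calls of F2r and Rab3gap1 held in 9 and 3 of 13 fits without 1 library.

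Several abundant secreted or structural genes lay above the range without passing limma, and they were chosen after their values were seen. Myl3, a myosin light chain of slow and ventricular muscle, was at 657 FPKM in eXEN against 50.7 to 193 with a median of 94.5 in the colonies, 94.4, 72.4 and 31.4 in F25 and 115 and 139 in s39 (limma adjusted p = 0.118). Pgc, a pepsinogen, was at 450.0 against 10.5 to 147, the pancreatic lipase cofactor Clps at 179 against 3.96 to 80.9, the peptide hormone Ucn at 230.3 against 1.89 to 73.6 and the water channel Aqp3 at 156 against 0.311 to 64.6. Fibroblasts held each of these 5 genes at 0.574 or less. The spread among XEN-like libraries was wide for them, and the limma adjusted p lay between 0.547 and 0.584 for the last 4. Ggt1, which cleaves extracellular glutathione, was at 52.6 against 0.647 to 9.22.

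Some calls rest on features that share sequence with others, and the way fragments were divided between them is not given in the sources used here. Snora81, a small nucleolar RNA inside Eif4a2, was at 102 FPKM in eXEN and listed at 0 elsewhere, while Eif4a2 at 523 lay inside its range of 123 to 866. The processed pseudogene Rpsa-ps10 was at 2010.2 in eXEN against 0.658 to 5.43, while its parent Rpsa, a ribosomal protein gene, was at 1972 against 965 to 3951. The pseudogene Rpsa-ps2 was at 206 against at most 1.18. AI662270, at 42.9 against at most 0.695, overlaps the gene model Gm11427 on the same strand. These values are uncertain. Measured genes on the other strand overlap Myl3 (Pth1r), Baiap2l1 (Bri3 and Gm15708), Gdpd3 (Gm9967) and Cryab, named below (Hspb2). Whether strand was used in counting is not given in the sources used here, so the levels of these genes are uncertain too.

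Below the range lay genes of the Hoxb cluster of chromosome 11, which holds homeobox genes that give cells positional identity along the body axis. Gm53, a long noncoding RNA of the cluster (ENSMUSG00000078706, chromosome 11, 96251105 to 96264868), chosen after its values were seen, had the largest gap of all genes below the range. It was at 0.253 FPKM in eXEN, at 11 to 22.4 with a median of 18.8 in the colonies, at 11.9, 25.5 and 13.3 in F25, at 14.7 and 12.5 in s39 and at 14.7 and 30.7 in the fibroblasts. It was present in each of the 15 other libraries, and eXEN was 63.2-fold below the median of the XEN-like ones (log2 difference -3.68 ± 0.39, limma adjusted p = 0.000132). Its neighbour Hoxb9 (chromosome 11, 96271457 to 96276595) was at 0.2 against 1.95 to 6.01 in the colonies, 14.9, 19 and 4.54 in F25, 2.76 and 3.94 in s39 and 35.5 and 35.4 in fibroblasts (limma adjusted p = 0.323). Hoxb7 (chromosome 11, 96286623 to 96290162) was at 3.26 against 8.07 to 13.4, with 6.88 and 8.65 in the fibroblasts (log2 difference -1.41 ± 0.28, limma adjusted p = 0.0397). The call of Hoxb7 held in 3 of 13 fits without 1 library and its gap fell under 1 after scaling.

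Hoxb8 at 1.43 against 2.82 to 13.3 and Hoxb6, listed at 0 against 0.646 to 6.89, lay below the range by less than the gap, as did Hoxb5 and Hoxb2, both listed at 0. Hoxb5 was at 0.06 in colony 1 and at a median of 0.234 in the other colonies, where a few fragments decide the value. Hoxb13, which lies beyond Gm53, was at 1.60, inside its range of 0.670 to 7.49, and Hoxb4 at 2.05 was also inside. Over the 4 Hox clusters, 12 of 36 tested genes (33.3%) lay below the range by any gap and 0 above, beside 13.7% and 4.91% of all genes. The 12 include Hoxb5, and also genes outside the Hoxb cluster, which are not named here. By any gap, a gene at 0 in eXEN counts as below even where the XEN-like libraries hold only traces of it. After scaling the numbers were 9 and 0, beside 7.80% and 8.47% of all genes. The median Hox gene was 0.717 lower in eXEN on the log2 scale, and 0.576 lower after scaling. limma called 1 of the 36, Hoxb7.

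**Figure D3:**
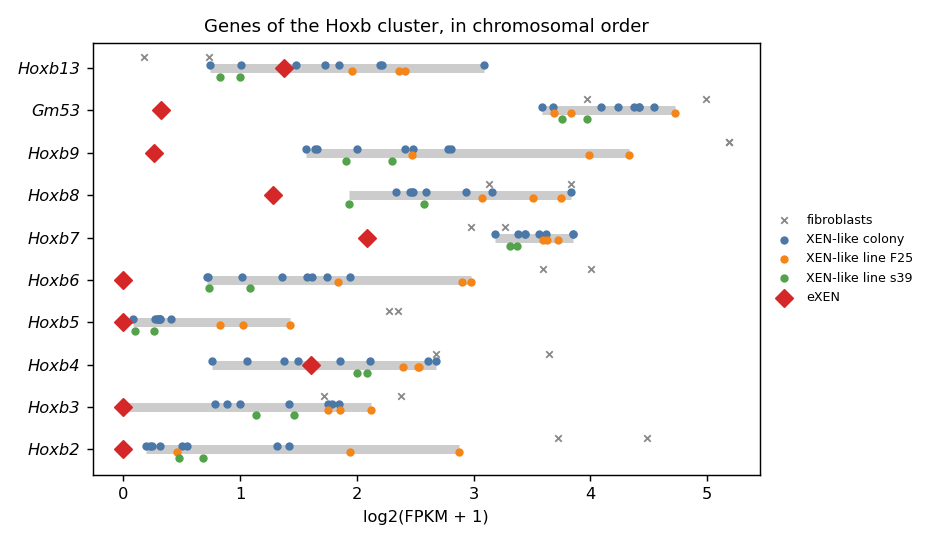
log2(FPKM + 1) of 10 genes of the Hoxb cluster, from Hoxb13 at the top to Hoxb2 in chromosomal order, in eXEN (red diamond), the XEN-like groups (blue, orange, green) and fibroblasts (grey crosses), with the range of the 13 XEN-like libraries as a grey bar. eXEN lies left of the bar from Gm53 to Hoxb5, with Gm53 at 0.253 FPKM against 11 to 25.5, and inside it at Hoxb13 and Hoxb4. It also lies left of the bar at Hoxb2, by less than the gap, while Hoxb3 is plotted and not described here. At Hoxb5 the distance is small, with 0 in eXEN against 0.06 in colony 1.

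Of the genes known from epithelial cells, Crb3, a membrane protein of the apical polarity complex (chromosome 17, 57059105 to 57065918), was at 1.13 FPKM in eXEN. It was at 9.62 to 107 with a median of 40.9 in the colonies, at 29.8, 20 and 23 in F25, at 45.1 and 38.3 in s39, and at 0 and 0.244 in the fibroblasts. eXEN was 34.0-fold below the median of 38.3 (log2 difference -3.93 ± 0.82, limma adjusted p = 0.0472). That call held in 2 of 13 fits without 1 library, with adjusted p up to 0.0825. Genes on the other strand, Dennd1c and Slc25a23, overlap Crb3, and whether strand was used in counting is not given in the sources used here. Tmprss2, a membrane protease of epithelia, was at 10.9 in eXEN, at 59.1 to 150.4 with a median of 85.5 in the colonies, at 75.3, 43.1 and 50.3 in F25, at 58.7 and 63.2 in s39 and at 0 and 0.132 in fibroblasts. Its call held in each of 24 alternatives (log2 difference -2.37 ± 0.31, limma adjusted p = 0.00121). Ajuba, a LIM protein at cell junctions, was at 4.39 against 15.5 to 41.4, with 11.3 and 17.7 in the fibroblasts (limma adjusted p = 0.0472, called in 2 of 13 fits without 1 library).

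The adhesion molecule Epcam (chromosome 17, 87635979 to 87651129) was at 32.1 in eXEN, at 85.9 to 296 with a median of 144 in the colonies, at 65.7, 75.9 and 66.9 in F25 and at 134 in both s39 libraries (limma adjusted p = 0.398). F11r, the junction molecule JAM-A, was at 13.3 against 31.1 to 69.2, and Spint1, an inhibitor of membrane proteases, at 2.51 against 6.55 to 47.8. F11r is not on the epithelial junction list and at most 1 of Epcam and Spint1 is. Those not on it were chosen after their values were seen. After scaling the gaps were -0.82 for Epcam, -1.02 for F11r and -0.90 for Spint1, so that F11r stayed outside the range by the gap, while Epcam and Spint1 lay below it by less than 1 and lost the call. The tight junction gene Ocln, at 5.39 against 11 to 35.5, and the splicing regulator Esrp1, at 8.62 against 11.9 to 41.7, lay below by less than 1. Cdh1, which encodes E-cadherin, was at 6.56 in eXEN against 45.9, 12.1 and 18.4 in F25, 95.0 and 103 in s39 and 6.70 to 128 in the colonies, where colony 6 was the lowest. Of 15 tested genes of the epithelial junction list, 4 (26.7%) lay below by any gap and 1 (6.67%) above, beside 13.7% and 4.91% of all genes. After scaling 3 (20%) lay below and 2 (13.3%) above, beside 7.80% and 8.47%. By the gap 1 member lay below as deposited and 0 after scaling, and limma called 0. Keratins of simple epithelia stayed inside the range, with Krt8 at 558 against 483 to 1297 and Krt18 at 584 against 544 to 1805.

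**Figure D4:**
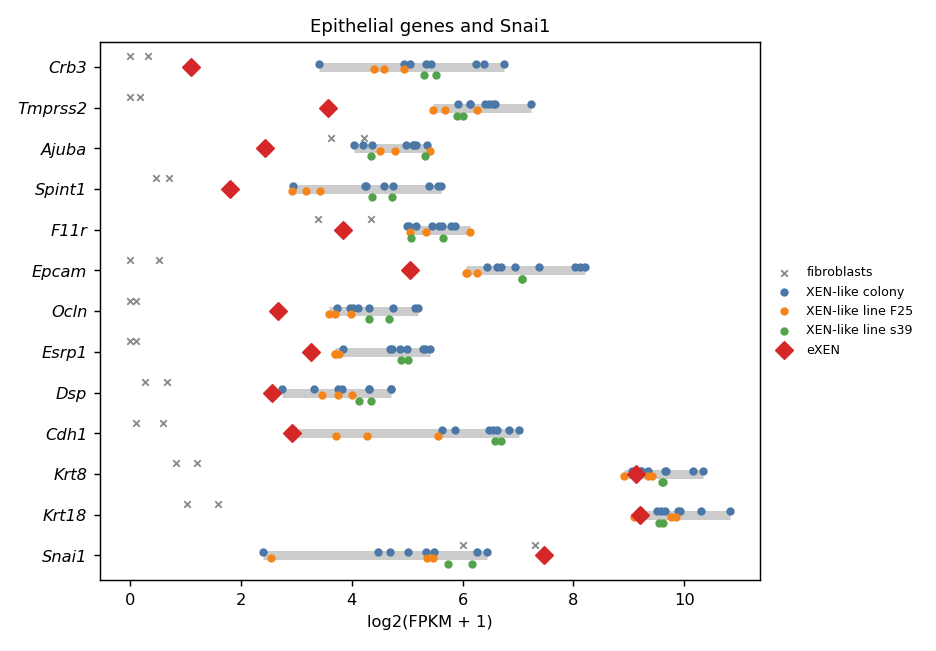
log2(FPKM + 1) of 12 epithelial genes and Snai1 in eXEN (red diamond), colonies (blue), F25 (orange), s39 (green) and fibroblasts (grey crosses), with the range of the 13 XEN-like libraries as a grey bar. eXEN lies left of the bar from Crb3 to Cdh1, where it is at 6.56 against at least 6.70 FPKM, inside it for both keratins and right of it for Snai1. The genes shown were chosen with their values known and are not the epithelial junction list. Of 15 tested members of that list, 1 (6.67%) lay above the range by any gap and is not among the 12 epithelial genes shown.

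Snai1, a zinc finger repressor of epithelial genes and a marker of parietal endoderm, went the other way. It was at 175 FPKM in eXEN, at 4.24 to 86.1 with a median of 35.5 in the colonies, at 39.9, 43.2 and 4.82 in F25, at 52.1 and 71.0 in s39 and at 157 and 63.5 in the fibroblasts. eXEN was above each XEN-like library by at least 1.01 on the log2 scale, and limma did not call it (adjusted p = 0.634). Colony 6, the lowest in Crb3 and Cdh1, was also the lowest in Snai1. The letters CAGGTG, read on both strands as CAGGTG or CACCTG, form the E-box that SNAI1 is known to bind. They occurred in 1785 of 10055 promoter windows of tested genes (17.8%), in 10 of 22 of genes below the range (45.5%), in 18 of 52 of genes above it (34.6%) and in 7 of 9 of the epithelial junction list (77.8%). The share was thus above that of all genes on both sides of the range. Binding was not measured, and whether the level of Snai1 bears on any of these genes was not tested. Windows of 3 genes below the range, chosen with their values known, are shown with the motif in capitals. They lie at chr17:57061951-57062250, chr17:87635729-87636028 and chr1:171437311-171437610, all on the plus strand of GRCm38.p6 and from RefSeq. No window without the motif is shown.
Crb3: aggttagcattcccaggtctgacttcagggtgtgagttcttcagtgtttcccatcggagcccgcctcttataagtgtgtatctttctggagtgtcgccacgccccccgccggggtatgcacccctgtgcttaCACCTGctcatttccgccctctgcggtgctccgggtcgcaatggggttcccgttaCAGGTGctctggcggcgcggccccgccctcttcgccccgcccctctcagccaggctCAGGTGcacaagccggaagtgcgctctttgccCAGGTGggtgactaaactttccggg
Epcam: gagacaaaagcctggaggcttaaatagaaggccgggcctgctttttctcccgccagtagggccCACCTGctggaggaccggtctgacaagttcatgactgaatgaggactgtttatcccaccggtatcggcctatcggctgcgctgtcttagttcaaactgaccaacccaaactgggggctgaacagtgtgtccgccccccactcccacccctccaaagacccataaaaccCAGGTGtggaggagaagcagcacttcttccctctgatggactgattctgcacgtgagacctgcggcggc
F11r: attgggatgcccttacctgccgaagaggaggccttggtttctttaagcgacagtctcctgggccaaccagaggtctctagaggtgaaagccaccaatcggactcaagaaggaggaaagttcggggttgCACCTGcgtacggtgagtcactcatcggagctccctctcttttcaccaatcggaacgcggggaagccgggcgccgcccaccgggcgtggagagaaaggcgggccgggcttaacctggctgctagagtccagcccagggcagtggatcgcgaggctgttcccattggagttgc
The motif stood 4 times in the window of Crb3, 2 times in that of Epcam and 1 time in that of F11r. The windows of Tex19.1 and Zfp42, genes above the range, each held it 1 time.

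Gsta4, a glutathione transferase that detoxifies lipid aldehydes, was at 7.01 FPKM in eXEN, at 31.9 to 110.3 with a median of 67.5 in the colonies, at 56.6, 97.1 and 86.6 in F25, at 49.3 and 48.0 in s39 and at 67.7 and 62.5 in the fibroblasts. It was 8.91-fold below the median of a gene that reached at least 31.9 in the 15 others (log2 difference -2.94 ± 0.48, limma adjusted p = 0.00917). Another 3 genes, of redox and detoxifying enzymes, were chosen after their values were seen and did not pass limma. The transferase Gstm2 was at 12.7 against 30.4 to 178, sulfiredoxin Srxn1 at 1.90 against 5.72 to 54.7 and the carbonyl reductase Cbr3 at 0.659 against 2.47 to 16.4, with adjusted p from 0.156 to 0.351. In fibroblasts these 3 genes were at 20.4 or more. Bcl2l1, which encodes the survival factor BCL-XL, was at 8.75 against 28.2 to 65.6, with 12.4 and 70.4 in fibroblasts (log2 difference -2.10 ± 0.38, limma adjusted p = 0.0194).

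The list of the p53 pathway and its cell cycle inhibitors had the highest share below the range by any gap among lists with at least 10 tested genes. Of 17 tested, 10 (58.8%) lay below the range by any gap and 0 above, beside 13.7% of all genes below. After scaling 6 (35.3%) lay below, beside 7.80%. The list's median was 0.855 lower in eXEN and 0.619 lower after scaling, and limma called 0 members and 0 lay below by the gap. Cdkn1a, the p53 target that encodes the inhibitor p21, was at 41.8 FPKM in eXEN, at 71.2 to 194 in the colonies, at 197, 395 and 128 in F25, at 68.9 and 66.0 in s39 and at 397 and 739 in fibroblasts. The p53 targets Perp at 3.43 against 7.23 to 39.1 and Zmat3 at 5.61 against 10.3 to 32.1 had the widest gaps, and Mdm2, which marks p53 for degradation, at 36.5 was inside its range of 29.4 to 82.0.

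Cholesterol synthesis genes had the next highest share, with 8 of 16 (50%) below the range by any gap and 1 (6.25%) above, beside 13.7% and 4.91%. After scaling 5 (31.2%) lay below and 1 above, beside 7.80% and 8.47%. Fdps, which makes farnesyl diphosphate, was at 17.1 against 32.5 to 120.2, and Mvk, mevalonate kinase, at 6.38 against 9.71 to 17.9. The member above was Insig1, which holds the sterol sensor in the endoplasmic reticulum, at 112 against 12.4 to 90.3. Of 18 cell cycle genes, 8 (44.4%) lay below as deposited, among them Plk1, a mitotic kinase, at 35.9 against 46.6 to 101, and Mcm5, of the replicative helicase, at 33.1 against 38.7 to 112. After scaling 2 of 18 (11.1%) lay below, near the 7.80% of all genes. limma called 0 members of the cholesterol and cell cycle lists.

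**Figure D5:**
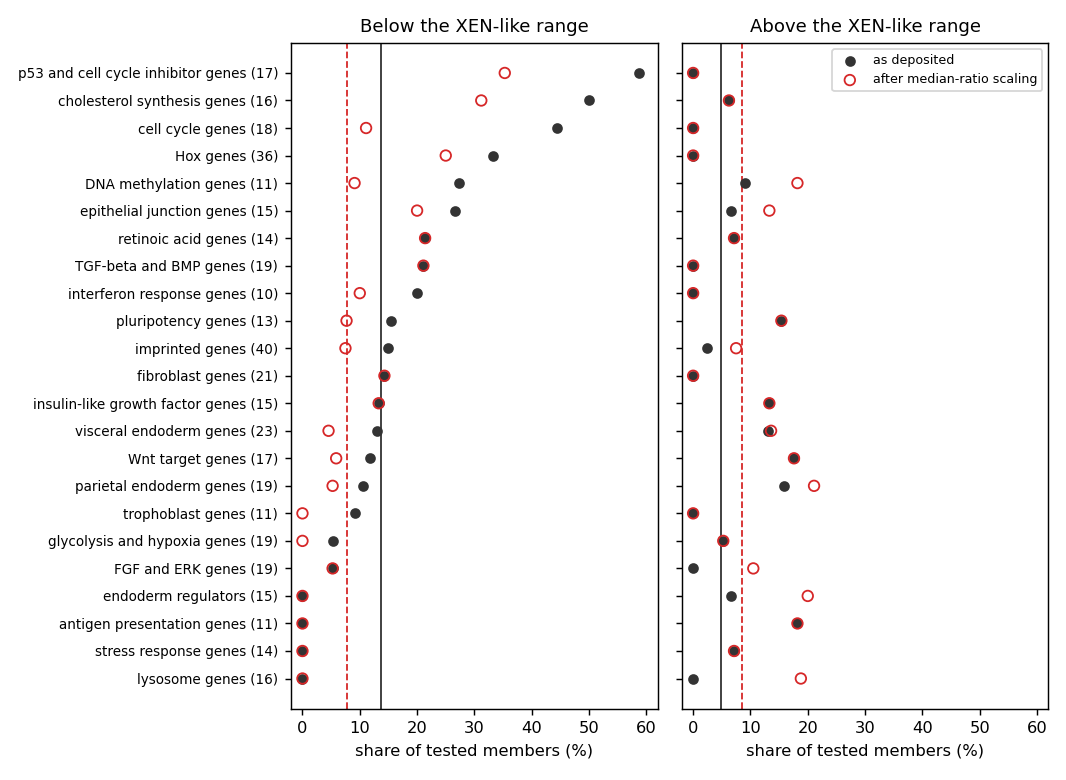
Share of tested members (%) below (left) and above (right) the range of the XEN-like libraries by any gap, for the gene lists with at least 10 tested genes (number in brackets), as deposited (black) and after scaling (red circles). The lines mark all genes tested, at 13.7% and 7.80% below and 4.91% and 8.47% above, and the p53 list lies farthest to the right of them in the left panel at 58.8%.

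Among genes of the yolk sac endoderm derivatives, of 23 tested visceral endoderm genes 3 (13%) lay above the range by any gap and 3 (13%) below, beside 4.91% and 13.7% of all genes. The fibrinogen chain Fgg was the 1 outside by the gap, at 1.68 FPKM against at most 0.110, and passed the filter only through eXEN. Ihh, a hedgehog signal, was at 168 against 46.1 to 161, and Dkk1, a Wnt antagonist, at 1.39 against 2.85 to 43.6. Of 19 tested parietal endoderm genes, 3 (15.8%) lay above and 2 (10.5%) below by any gap, beside the same 4.91% and 13.7%. By the gap Snai1 lay above and the small heat shock protein Cryab below, at 0.433 against 4.51 to 135. Srgn, a proteoglycan core protein of parietal endoderm, was at 865 against 84.8 to 491. The actin-binding gene Tpm1, of the smooth muscle list, was at 30.6 against 78.1 to 333.

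Igf2, an imprinted fetal growth factor, was at 87.9 FPKM in eXEN, at 87.8 and 91.6 in s39, at 335 to 949 in the colonies, at 2371, 2278 and 987 in F25 and at 197 and 191 in fibroblasts. The noncoding H19 of the same locus was at 447 in eXEN, 305 and 674 in s39, 1552 to 4681 in the colonies and 5449 to 6646 in F25. For these 2 genes, chosen after their values were seen, eXEN and s39 formed the low end, and neither was called by limma. Peg3, a paternally expressed zinc finger gene, was at 8.96 in eXEN, below its XEN-like range of 14.6 to 64.4, where s39 was at 30.6 and 38.4. Of 40 imprinted genes, 6 (15.0%) lay below by any gap and 1 above, near the 13.7% and 4.91% of all genes.

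Among genes of other cell types, 3 of 21 tested fibroblast genes (14.3%) and 1 of 11 trophoblast genes (9.09%) lay below the range by any gap, beside 13.7% of all genes, and 1 of 4 endothelial genes lay above, beside 4.91%. By the gap 0 of these genes and 0 of 4 mesoderm and 8 neural genes lay outside, which is near the 0.579% and 0.257% of all genes, and limma called 0 of them. Of 3 tested blood cell genes, Tyrobp, a signalling adaptor of myeloid cells, passed the filter only through eXEN. It was at 1.61 FPKM in eXEN, 0 to 0.317 in XEN-like libraries and 6.82 and 15.7 in fibroblasts.

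The fibroblast levels of the genes outside the range followed their side. Of the 79 genes above, 67 (84.8%) were lower in fibroblasts than in eXEN by at least 1 on the log2 scale, beside 18.9% of all genes, and 45 (57.0%) were under 1 FPKM in both fibroblast libraries, beside 14.2%. Of the 35 genes below, 23 (65.7%) were higher in fibroblasts than in eXEN, beside 19.5%, and 5 (14.3%) were lower. Both counts use the eXEN value that also chose the genes, so they describe the members and test nothing. Below the range, Hoxb9, Tpm1, Cryab and Gsta4 were high in fibroblasts, while Crb3, Tmprss2, Epcam and Spint1 were at 0.636 or less there.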

How the data were processed

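Poly-A RNA libraries were prepared with a NEBNext Ultra kit, per the labels' protocols. The submitters' processing notes name TopHat2 as the aligner and mm10 as the build. The deposited values were taken as FPKM, since they were not whole and had unequal library sums. The counting tool, annotation and any filter are not given in the sources used here. The table held 20459 genes, and 1 row with an empty cell was dropped. GENCODE vM21 gave positions and matched 99.6% of identifiers, leaving 19406 autosomal genes, so genes of the sex chromosomes were not used. Groups followed the labels.

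Ranges, medians and limma 3.58.1 fits (R 4.3.3, variance trend, 11 residual degrees of freedom, flow cell in 2 levels with both HVN codes joined) were computed on log2(FPKM + 1), after a filter of 1 FPKM in at least 1 of 14 libraries. Fits were tested on simulated data. Named genes were those outside the range by at least 1, called by limma and at 10 FPKM or more on the higher side, without unnamed models and pseudogenes, up to 15 per direction, plus members of gene lists and the genes said to be chosen after their values were seen. The members, lists and rule were chosen with earlier results of these data known, so counts over lists are descriptions. Which list members serve as examples was also chosen after seeing their values. Promoter windows came from RefSeq (GRCm38.p6), with the first start listed for each symbol.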

Additional observations from a re-analysis of the deposited data

Results flagged for a closer look

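The 8 XEN-like colonies were searched for a library far from the others in 91 genes named in the text, with Dixon's ratio at its 95% critical value for 8 samples on the log2 scale. It marked 11 genes. The critical value assumes normal values, for which chance marks about 1 in 20 groups. Where all other colonies are at 0 any value above 0 is marked, so these 11 genes cannot be set against that rate. In 6 of them the colony that stood apart was the 1 above the others at a low level: colony 6 in AI662270 (0.106 FPKM) and Slc9b1 (0.936), colony 4 in Tex19.1 (0.163), colony 5 in Tuba3a (0.101), colony 7 in Pramef12 (0.0538) and colony 1 in Tyrobp (0.317), with the others at a median of 0. Colony 7 was the highest in Zfp42 with 1.78 FPKM, against a median of 0.0793 in the others. Colony 4 was the highest in Dppa5a with 37.1 FPKM, against a median of 0 in the others. Colony 6 was the lowest in Cdh1, with 6.70 against 92.1, and in Esrp1, with 13.4 against 31.1. Colony 1 was the lowest in Hoxb5, with 0.06 against 0.234.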

How the results depend on the processing

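All 21 named genes kept their direction in each alternative in which they were tested. Of them, 9 stayed called by limma in all 24 limma alternatives. Of these 9, 6 passed the filter only through eXEN and had to differ, the rest being Hsd17b2, Ipp and Tmprss2. In all 20 range alternatives 20 of the 21 stayed outside the range, the exception being Hoxb7 after scaling. Fewer libraries, another filter or a lower pseudocount cannot bring a gene back inside, so only the scaling could have done so. The number limma called higher was 61 and became 26 with a pseudocount of 0.1, 21 with a filter on a mean of 1 FPKM and 30 against colonies only. The number called lower was 10 and became 5 with the mean filter, 6 after median-ratio scaling, 16 against lines only, 4 against colonies only, 18 with colonies, F25 and s39 as separate groups and 6 with fibroblasts in the fit. Without 1 XEN-like library it was 5 to 10, and the number called higher 51 to 62. The count above the range was 79 and became 123 on HVN flow cells, 251 against lines only, 670 with any gap, 21 with a gap of 2, and 1154 with any gap after scaling, an alternative chosen after seeing the data. The count below was 35 and became 138 with a pseudocount of 0.1, 78 on HVN flow cells, 216 against lines only, 60 against colonies only, 1873 with any gap, 3 with a gap of 2 and 1063 with any gap after scaling. A range over fewer libraries is narrower by construction. Without 1 XEN-like library, 79 to 88 genes lay above and 35 to 44 below. The count of genes above and lower in fibroblasts was 67 and became 180 against lines only and 418 with any gap. It was 21 with a gap of 2 and 610 with any gap after scaling. The count below and higher in fibroblasts was 23 and became 83 with a pseudocount of 0.1 and 45 on HVN flow cells. It was 110 against lines only, 38 against colonies only, 587 with any gap, 2 with a gap of 2 and 407 with any gap after scaling. The median correlation of eXEN with XEN-like libraries was 0.878 with the mean filter. Where no construction is named, the cause was not tested. No paired analysis was possible because eXEN has 1 library and shares no second replicate number with another group. For the same reason eXEN could not be left out. Depth limits genes near 1 FPKM, where a few fragments decide the value.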
